A study of Mus musculus with 6 samples.

Results

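The 10 genes described here belong to the YAP-TEAD pathway: the coactivator genes Yap1 and Wwtr1, the transcription factor genes Tead1 and Tead2, the inhibitory kinase gene Lats2, and 5 genes widely used as readouts of the pathway (Ccn1, Ccn2, Ankrd1, Amotl2 and Axl). Ccn1 and Ccn2, also named Cyr61 and Ctgf, encode matricellular proteins, which are secreted into the matrix and act on cells through integrins rather than as scaffold. The genes were chosen by name, with earlier results of these data known. All 14 probes whose RefSeq accession maps to them were used, of 39429 non-control probes on the array. All 10 genes passed the filter on dim probes and were tested among 21809 genes. Of these, 15242 had a symbol and 6567 were entries without a symbol, which are counted as genes throughout.

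RNA came from hearts of mouse embryos at embryonic day 9.5, dissected with the heart tube and the underlying pharyngeal mesoderm and endoderm, in 3 wild-type and 3 Arid3b-null pools of 4 embryos each. Arid3b encodes a nuclear protein that binds AT-rich DNA through its ARID domain. The sources used here name neither the null allele nor the strain. Each pool was hybridised to 1 single-colour Agilent array, and the pools numbered 1 in both groups shared a slide, as did those numbered 2 and 3, so there were 3 slides.

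In the Hippo pathway, the kinases MST1 and MST2 activate LATS1 and LATS2, which phosphorylate YAP and its paralogue TAZ (the product of Wwtr1) and hold them in the cytoplasm. Unphosphorylated YAP and TAZ enter the nucleus, bind TEAD factors on DNA and raise transcription of target genes, several of which, such as Lats2 and Amotl2, encode inhibitors of YAP. In the heart the pathway is known for its part in cardiomyocyte proliferation and in the response of cells to stretch and matrix stiffness. Arrays measure transcripts, while YAP and TAZ are controlled mainly through phosphorylation and location.

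TEAD factors recognise the letters GGAATG, known as the MCAT core. The promoters of 4 target genes are shown because they hold this motif and because their transcripts are among those compared below. Each sequence, from RefSeq on build GRCm38.p6, covers the 250 bases before the annotated start of the gene, 5′ to 3′ in the direction of transcription, with GGAATG or its reverse complement CATTCC in capitals.
Ccn1 (GRCm38.p6, chr3:145649986-145650235, minus strand): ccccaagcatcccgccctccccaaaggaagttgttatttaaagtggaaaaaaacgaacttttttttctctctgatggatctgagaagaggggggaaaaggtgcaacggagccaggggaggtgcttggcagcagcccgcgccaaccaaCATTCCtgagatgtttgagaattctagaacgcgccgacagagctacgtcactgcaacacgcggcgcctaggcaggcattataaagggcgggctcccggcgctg
Ankrd1 (GRCm38.p6, chr19:36119845-36120094, minus strand): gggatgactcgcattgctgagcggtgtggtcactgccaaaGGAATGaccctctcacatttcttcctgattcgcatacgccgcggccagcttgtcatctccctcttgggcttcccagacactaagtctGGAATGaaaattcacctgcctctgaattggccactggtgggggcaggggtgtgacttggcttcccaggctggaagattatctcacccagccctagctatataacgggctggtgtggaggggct
Amotl2 (GRCm38.p6, chr9:102717554-102717803, plus strand): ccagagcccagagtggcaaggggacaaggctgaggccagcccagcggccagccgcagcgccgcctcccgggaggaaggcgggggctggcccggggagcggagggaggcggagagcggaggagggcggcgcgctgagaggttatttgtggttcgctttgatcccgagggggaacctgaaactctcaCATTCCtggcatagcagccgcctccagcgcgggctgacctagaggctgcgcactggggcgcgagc
Axl (GRCm38.p6, chr7:25788734-25788983, minus strand): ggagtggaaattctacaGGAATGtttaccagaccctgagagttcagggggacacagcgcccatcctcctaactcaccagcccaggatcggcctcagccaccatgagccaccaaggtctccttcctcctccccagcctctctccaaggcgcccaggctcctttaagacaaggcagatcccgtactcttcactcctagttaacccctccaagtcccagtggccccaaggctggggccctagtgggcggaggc

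The motif begins 103 bases before the start in Ccn1, 210 and 123 bases before it in Ankrd1, 65 bases before it in Amotl2 and 233 bases before it in Axl. Promoter windows from 250 bases before to 50 bases after the start were available for 8 of the 10 genes, Ccn1, Ankrd1, Amotl2, Axl, Lats2, Yap1, Wwtr1 and Tead2. Searched on both strands, GGAATG was found in 7 of the 8, all but Tead2, while 14.7% of 32851 promoter windows of the same length hold it. The 2 figures differ in unit. The 8 genes had 10 windows, and a gene counted if any of its windows held the motif, while the share is over single windows. The second window of Lats2 did not hold it, and those of Wwtr1 overlap. The motif lies 141 bases before the start in Yap1, 136 bases before the first of 2 annotated starts in Wwtr1 and just after the first of 2 annotated starts in Lats2. The letters TGANTCA, bound by AP-1, and the CArG box, bound by SRF, were in 0 of the 8, and in 7.81% and 1.63% of all windows. The letters ACGTG, the core bound by hypoxia-inducible factors, were in 2 of the 8, Lats2 and Yap1, and in 19.6% of all windows. In both they form CACGTG, which counts once on each strand. None of these motifs overlap each other in these windows. A match describes the letters only, and these promoters were not assayed here.

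Levels are given on the log2 scale relative to the 75th percentile of log2 signal on the same array, and changes are null minus wild type. A gene was called changed where limma gave an adjusted p (Benjamini-Hochberg, all 21809 tested genes) under 0.05. Between 27136 and 31039 of 43020 non-control spots per array were well above background and none was saturated. All 14 probes of the 10 genes were well above background on all 6 arrays. Small numbers of arrays, 3 per group, limit the precision of every value. The 75th percentile itself was 9.5, 9.57 and 10.2 in wild-type pools 1, 2 and 3 and 9.47, 9.29 and 9.02 in null pools 1, 2 and 3, so the null arrays were dimmer before scaling. On its brightest probe Arid3b read 2.91, 3.40 and 3.69 in the wild-type pools and 1.08, 0.52 and 0.45 in the null pools. That is a fall to 15.9% of wild type (limma adjusted p = 0.00194). Its dimmer probes fell to 16.7% and 6.16% of wild type, each well above background on 2 of 3 null arrays. The size of these falls depends on the background correction. With normexp background correction their log2 changes were -0.876 and -2.064, in place of -2.581 and -4.021. The sources used here do not place its probes relative to the deletion. All 10 markers of cardiomyocytes, among them Nkx2-5 and Tnnt2, were well above background on all 6 arrays, and 0 of them were called changed.

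Comparing null with wild-type hearts asks which of these genes differ in level when Arid3b is missing. Ccn2 rose about 4-fold in the null hearts and Ccn1 about 2-fold. None of the other 8 genes passed the test. Thus 2 of 10 genes rose and 0 fell, where 6.63% of all genes tested rose and 3.80% fell. In a fit blocked by slide 1 of the 10 passed, Ccn2, against 3.42% of all genes. The pools of 6 genes fell into separate ranges by genotype, against 32.9% of all genes, with null above in 5 and below in 1, against 18.0% and 14.9%. The median change over the 10 genes was 0.40, and 0.03 over all genes tested. In pooled tissue, more cells of a type and more RNA per cell cannot be told apart.

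**Figure D1:**
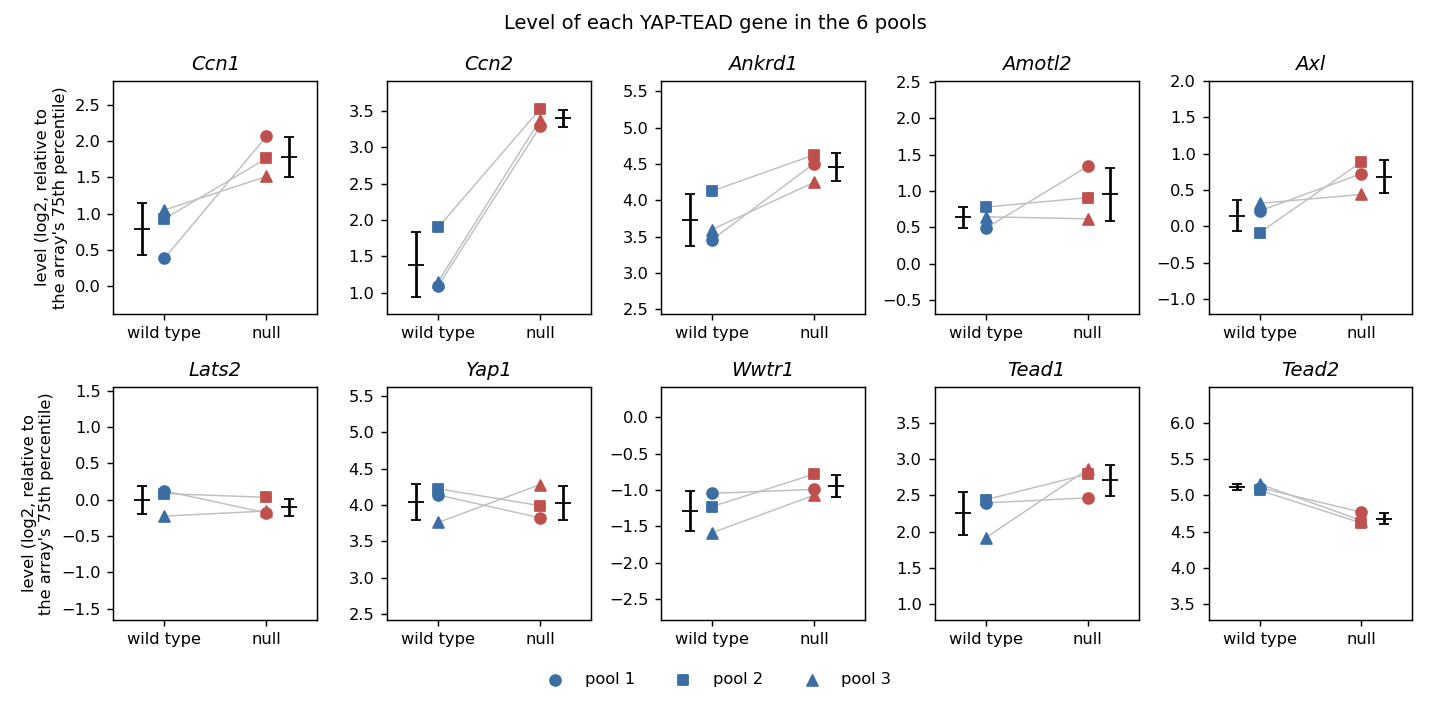
Level of each of the 10 genes (log2, relative to the array's 75th percentile) in the wild-type pools (blue) and null pools (red), with lines joining pools on the same slide and bars giving mean ± SD (n = 3 pools each). Every panel spans the same number of log2 units, and the null pools of Ccn2 lie between 3.29 and 3.53, above its wild-type pools at 1.09 to 1.90.

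Among the target genes, Ccn2, the connective tissue growth factor gene, read 1.09, 1.90 and 1.15 in wild-type pools 1, 2 and 3 and 3.29, 3.53 and 3.38 in null pools 1, 2 and 3. Every null pool lay above every wild-type pool, and the null pools were close together while wild-type pool 2 was higher than the other wild-type pools. The means were 1.38 ± 0.45 and 3.40 ± 0.12 (SD, n = 3 each). The change of 2.02 (SE 0.24) is a rise of 4.04-fold, with a 95% interval from 2.74-fold to 5.97-fold and a limma adjusted p = 0.00394. Within slides 1, 2 and 3 the null pool lay 2.19, 1.63 and 2.23 above its wild-type neighbour. With slide as a block the adjusted p was 0.00840.

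Ccn1, whose product binds integrins and is made quickly in response to growth factors, read 0.38, 0.93 and 1.05 in the wild-type pools and 2.06, 1.76 and 1.51 in the null pools. The groups did not overlap, with wild-type pool 1 the lowest and null pool 1 the highest of the 6. Means were 0.79 ± 0.35 and 1.78 ± 0.28 (SD, n = 3 each). The change of 0.99 (SE 0.23) is a rise of 1.99-fold, with a 95% interval from 1.36-fold to 2.90-fold and a limma adjusted p = 0.0401. Within slides 1, 2 and 3 the difference was 1.68, 0.83 and 0.46. This call ended when any 1 of the 6 pools was left out (adjusted p from 0.061 to 0.114), when the slide entered as a block (0.134), when each array was scaled to its median (0.0722) and when dim probes were not filtered (0.0958). The change itself stayed between 0.79 and 1.12 in all 17 alternative settings.

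Ankrd1, a nuclear and sarcomeric ankyrin repeat protein of cardiomyocytes, read 3.46, 4.13 and 3.60 in the wild-type pools and 4.51, 4.63 and 4.25 in the null pools. The lowest null pool lay just above the highest wild-type pool. The change of 0.73 (SE 0.22, 95% interval from 0.22 to 1.24) did not pass the test (adjusted p = 0.0787), and it passed under 1 of 17 alternatives, a trended and robust prior (0.0455). The within-slide differences were 1.05, 0.50 and 0.65.

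Axl, a receptor tyrosine kinase bound by the ligand Gas6, read 0.21, -0.09 and 0.32 in the wild-type pools and 0.73, 0.89 and 0.44 in the null pools. The groups did not overlap, but null pool 3 and wild-type pool 3 were only 0.12 apart. The change of 0.54 (SE 0.19, 95% interval from 0.09 to 0.98) did not pass (adjusted p = 0.123). It passed only with array weights (0.0251).

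Amotl2, an angiomotin family protein that binds YAP and keeps it from the nucleus, read 0.49, 0.78 and 0.64 in the wild-type pools and 1.34, 0.91 and 0.62 in the null pools. These groups overlapped, since null pool 3 lay below wild-type pools 2 and 3. The change was 0.32 (SE 0.22, 95% interval from -0.19 to 0.82, adjusted p = 0.395).

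Lats2, both a target of YAP and a kinase that inhibits it, read 0.12, 0.08 and -0.23 in the wild-type pools and -0.18, 0.03 and -0.16 in the null pools on its brighter probe. The groups overlapped, with a change of -0.09 (SE 0.17, 95% interval from -0.49 to 0.30, adjusted p = 0.772). Its dimmer probe, mapped to another transcript accession of the gene, read -3.12, -3.56 and -3.16 in the wild-type pools and -2.70, -2.69 and -3.05 in the null pools. There the groups did not overlap, and the change of 0.47 (SE 0.19) did not pass over all kept probes (adjusted p = 0.170). The mean of both probes gave 0.19, so the sign for Lats2 depends on the probe.

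**Figure D2:**
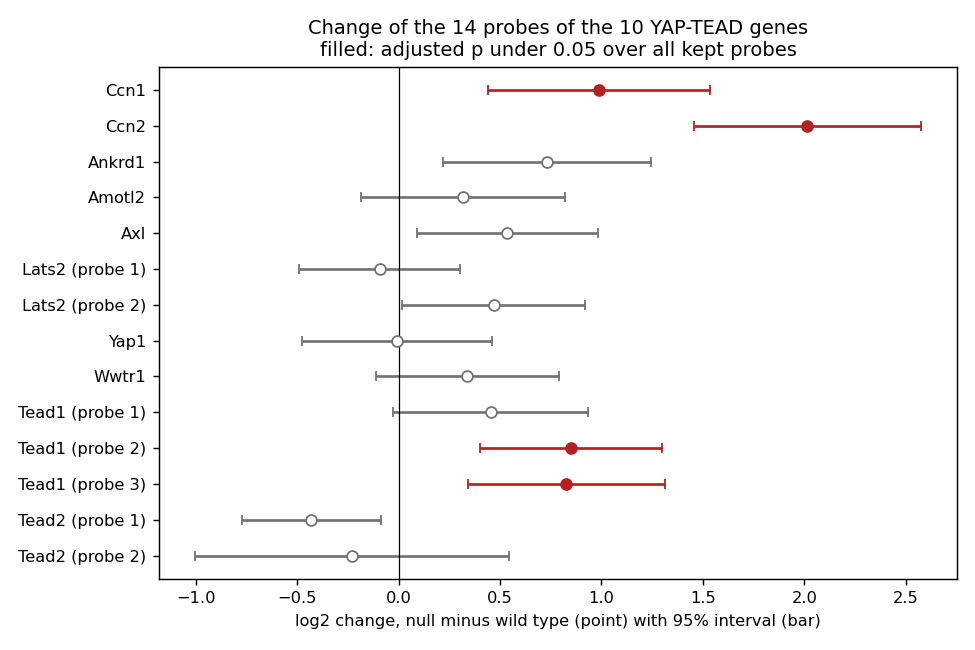
Log2 change (null minus wild type, points) with its 95% interval (bars) for the 14 probes, from limma over all 26857 kept probes, with probes of a gene ordered from bright to dim and filled points at an adjusted p under 0.05. Filled points belong to Ccn1, Ccn2 and the dimmer 2 of the 3 Tead1 probes, and the intervals of Yap1 and Wwtr1 include 0.

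The coactivator transcripts did not pass the test. Yap1 read 4.14, 4.22 and 3.76 in the wild-type pools and 3.82, 3.99 and 4.28 in the null pools, so the groups overlapped. Its change was -0.01 (SE 0.20, 95% interval from -0.47 to 0.46, adjusted p = 0.986). In fold terms that interval runs from 0.72 to 1.37, so changes beyond this range are outside the interval. Wwtr1 read -1.05, -1.23 and -1.59 in the wild-type pools and -0.99, -0.78 and -1.07 in the null pools. Null pool 3 fell just below wild-type pool 1, and the other null pools lay above all wild-type pools. The change was 0.34 (SE 0.19, 95% interval from -0.11 to 0.79, adjusted p = 0.307).

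Tead1, the first described TEAD factor and one required for the embryonic mouse heart, had 3 probes. The brightest read 2.40, 2.44 and 1.92 in the wild-type pools and 2.47, 2.79 and 2.86 in the null pools. The groups were separated by a narrow gap, between wild-type pool 2 and null pool 1. The change of 0.45 (SE 0.21, 95% interval from -0.03 to 0.93) did not pass (adjusted p = 0.208).

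The dimmer Tead1 probes, all 3 being mapped to the same transcript accession, changed more. The second in brightness read -2.24, -2.44 and -2.57 in the wild-type pools and -1.27, -1.77 and -1.66 in the null pools, a rise of 0.85 (SE 0.19) with limma adjusted p = 0.0343 over all kept probes. The third read -2.63, -2.56 and -2.60 against -1.40, -2.13 and -1.78, a rise of 0.83 (SE 0.21, adjusted p = 0.0470). Over kept probes 10.2% were called. In the blocked fit neither passed (adjusted p = 0.113 and 0.15), and with normexp background correction the third did not (0.0609). The mean of the 3 probes rose by 0.71 (adjusted p = 0.0343). The probes of Tead1 thus disagree on whether the gene passes the test, not on the direction.

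Tead2, a TEAD factor abundant in early embryos, read 5.11, 5.07 and 5.16 in the wild-type pools and 4.77, 4.62 and 4.65 in the null pools on its brighter probe. The pools of each group lay within 0.15 of each other and every null pool was lower. The change of -0.43 (SE 0.14, 95% interval from -0.76 to -0.10) did not pass (adjusted p = 0.104), except with array weights (0.0325). The dimmer probe read 3.64, 3.92 and 4.39 against 4.46, 3.37 and 3.44, where null pool 1 was the highest of all 6 and the change was -0.23 (SE 0.33, adjusted p = 0.709 over all kept probes).

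**Figure D3:**
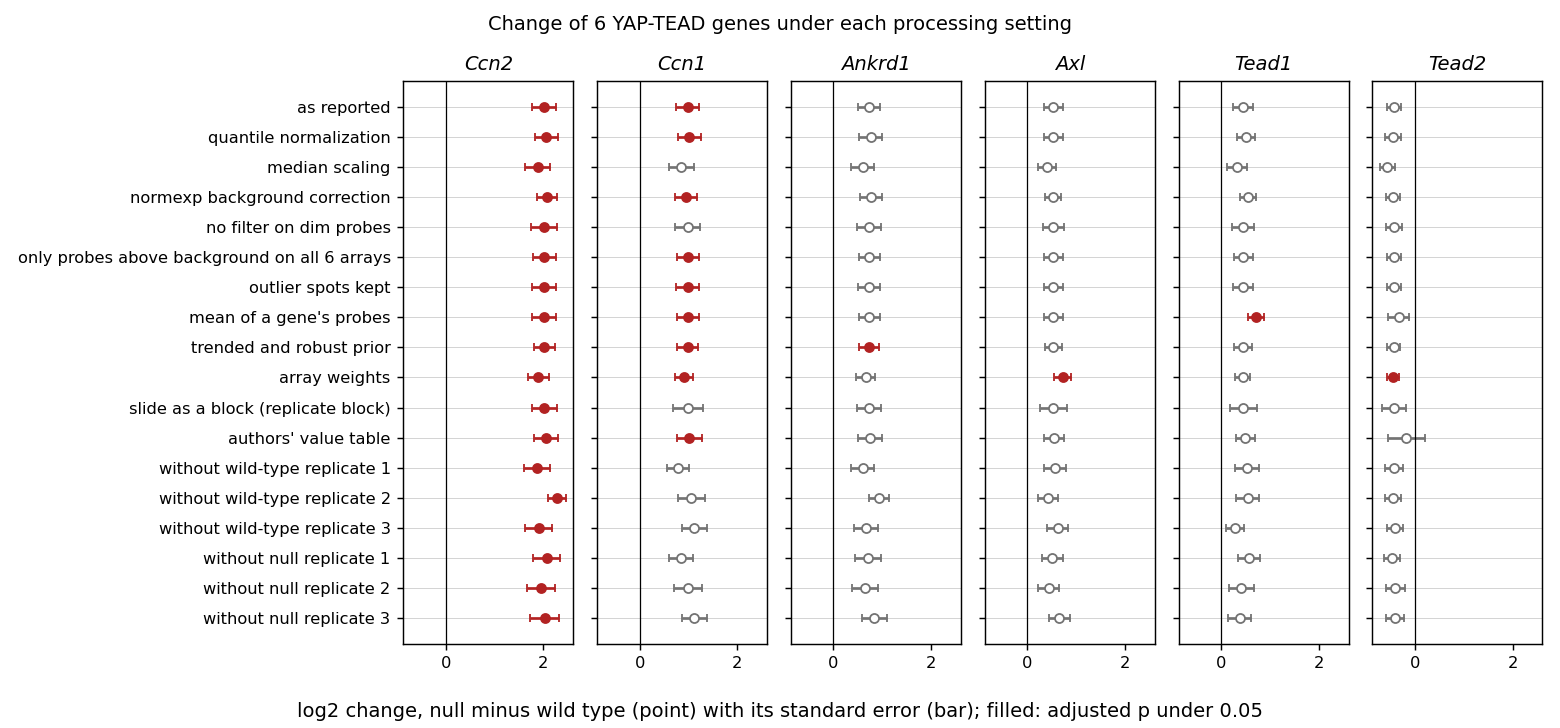
Log2 change (null minus wild type, points) with its standard error (bars) for 6 of the genes under the reported setting and each of 17 alternatives, with filled points at an adjusted p under 0.05. Ccn2 is filled in every row, while Ccn1 is open in every row that leaves out 1 pool and Ankrd1, Axl, Tead1 and Tead2 are filled in 1 row each.

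Paralogues were also compared as a ratio on the same array, in which any constant used to scale an array cancels. The log2 ratio of Ccn2 to Ccn1 was 1.03 higher in the null pools, and higher by 0.52, 0.80 and 1.76 within slides 1, 2 and 3. The ratio of Tead1 to Tead2 was 0.88 higher, and by 0.41, 0.80 and 1.45 within the slides. In both, no null pool overlapped a wild-type pool, and the exact two-sided permutation test over the 6 pools gave p = 0.1, the smallest that 3 against 3 allows, and 0.15 adjusted over the 3 pairs. The ratio of Wwtr1 to Yap1 was 0.35 higher, with overlapping groups and exact permutation p = 0.3 (0.3 adjusted).

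Other parts of the pathway mostly did not pass. Of 22 upstream Hippo genes (kinases, adaptors, junction proteins and binders of YAP), 21 were tested, 1 rose and 1 fell, against 10.4% of all genes called in either direction, and their median change was 0.02. Nf2, which encodes the junction protein merlin, an activator of LATS kinases, read -0.05, 0.05 and 0.21 in the wild-type pools and -0.56, -0.48 and -0.61 in the null pools, a fall of 0.62 on the log2 scale from wild type to null (change -0.62, SE 0.15, adjusted p = 0.0435). Rassf1, an adaptor that binds MST kinases, read 2.06, 2.12 and 2.12 against 2.59, 2.66 and 2.70, a rise of 0.55 (SE 0.14, adjusted p = 0.0492). Both calls ended with any 1 pool left out (adjusted p up to 0.139 and 0.162) and in the blocked fit (0.236 and 0.282). They also ended when dim probes were not filtered (0.1165 and 0.1296). The Nf2 call ended with the mean of its probes (0.0786) and with the authors' log2 values (0.0521), and that of Rassf1 under median scaling (0.108). Within slides 1, 2 and 3 Nf2 differed by -0.51, -0.53 and -0.82 and Rassf1 by 0.54, 0.54 and 0.58. The 19 others, among them the MST kinase genes Stk3 and Stk4 and the paralogue Lats1, changed by -0.41 to 0.61.

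Of the other TEAD and Vgll genes, 4 of 5 were tested, 0 rose and 1 fell, against 6.63% and 3.80% of all genes. Vgll2, a vestigial-like protein that binds TEAD factors in place of YAP and is known in pharyngeal arches and skeletal muscle, read 2.16, 2.47 and 2.36 in the wild-type pools and 0.16, 0.55 and 0.21 in the null pools. All null pools lay far below all wild-type pools. The change of -2.03 (SE 0.18, 95% interval from -2.44 to -1.61) had a limma adjusted p = 0.00133, or 0.00633 in the blocked fit, and was a 4.07-fold fall. Its direction and call held in all 17 alternatives, and the smallest and largest falls within a slide were -1.93 and -2.15. Tead3 and Tead4 changed by 0.25 (SE 0.20) and 0.22 (SE 0.18) and did not pass.

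Of 16 other YAP and TAZ targets, genes commonly used together as a target signature, 15 were tested. Of those 3 rose (20%, against 6.63% of all genes) and 0 fell, and the median change was 0.06. Crim1, a transmembrane regulator of BMP ligands, read -2.70, -2.61 and -2.41 in the wild-type pools and -1.04, -1.44 and -1.28 in the null pools, a rise of 1.32 (SE 0.17, adjusted p = 0.00567). F3, tissue factor, which starts coagulation, read -1.25, -1.52 and -1.76 against -0.36, -0.19 and -0.38, a rise of 1.20 (SE 0.18, adjusted p = 0.00877). Crim1 and F3 passed in all 17 alternatives.

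Igfbp3, a carrier of insulin-like growth factors, read -2.50, -1.86 and -1.51 in the wild-type pools and 0.02, -0.42 and -1.10 in the null pools, a rise of 1.45 (SE 0.35, adjusted p = 0.0415). That call ended under 8 alternatives, among them 5 of the 6 that leave out a pool, all but null pool 3. The other 12 targets changed by -1.51 to 0.81. The lowest of them, Foxf2, a forkhead factor of mesenchyme named here after its value was seen, read -1.59, -1.58 and -2.34 against -3.63, -3.90 and -2.50 (change -1.51, SE 0.39, adjusted p = 0.0514). The number of these targets that fell was 1 under 8 of 17 alternatives, among them leaving out null pool 3.

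Among 13 other matricellular genes, 10 were tested, 2 rose (20%, against 6.63% of all genes) and 0 fell, with a median change of 0.47. The number that rose became 4 when wild-type pool 1 was left out, 3 for null pool 1, and 1 for either wild-type pool 3 or null pool 3. Thbs1, thrombospondin 1, a platelet and matrix protein that activates latent TGF-beta, read -0.43, -0.44 and -1.07 in the wild-type pools and 1.19, 1.73 and 1.53 in the null pools. The groups were well apart, and the rise of 2.13 (SE 0.24) is 4.37-fold with limma adjusted p = 0.00306. Sparcl1, a matrix protein related to Sparc, read 1.56, 1.99 and 1.33 against 2.74, 2.71 and 3.09, a rise of 1.22 (SE 0.22, adjusted p = 0.0164, and 0.0644 in the blocked fit). Without wild-type pool 3 or null pool 3 Sparcl1 did not pass (0.0519 and 0.0538). Of the remaining CCN genes, Ccn4 changed by 0.10 (SE 0.22), while Ccn3, Ccn5 and Ccn6 did not pass the filter on dim probes.

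**Figure D4:**
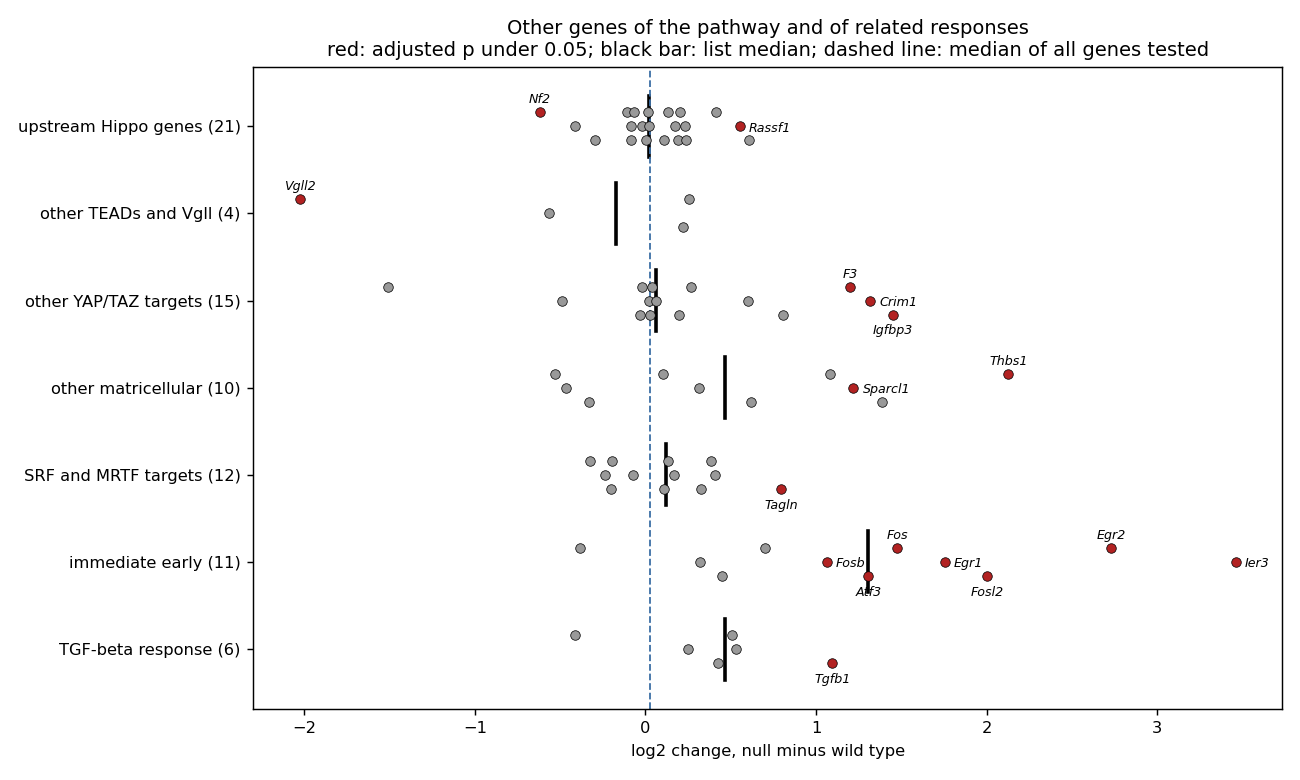
Log2 change (null minus wild type) of the tested genes of 7 other lists, with the number tested in brackets, red points and names for genes at an adjusted p under 0.05, a black bar for the median of a list and a dashed line for the median of all genes tested, 0.03. Vgll2 lies far left at -2.03, and the immediate early genes have the highest median, 1.31.

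Ccn1, Ccn2 and Ankrd1 also respond to other regulators, so genes of those responses were set beside them. Like the lists above and the marker lists below, these were chosen with earlier results of these data known. Their shares therefore describe the lists and are not a test of them. Of 12 immediate early genes, 11 were tested, 7 rose (63.6%, against 6.63% of all genes) and 0 fell, with a median change of 1.31. The called genes with the smallest p were Ier3 (3.46, SE 0.20), Fosl2 (4.01-fold), Egr2 (2.73, SE 0.35) and Egr1 (1.76, SE 0.26), with limma adjusted p from 0.000301 to 0.00784. Egr2 was well above background on 2 of 3 wild-type arrays, and its change was 0.66 with normexp background correction. Fosl2, a subunit of AP-1, read -1.74, -1.59 and -2.10 in the wild-type pools and 0.23, 0.32 and 0.02 in the null pools.

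Of 7 TGF-beta response genes, 6 were tested, 1 rose (16.7%, against 6.63% of all genes) and 0 fell, with a median change of 0.47. Tgfb1, the ligand, read -0.50, -0.49 and 0.33 against 1.08, 1.01 and 0.53, a rise of 1.10 (SE 0.28, adjusted p = 0.0474) whose call ended in the blocked fit (0.131) and when any 1 pool other than wild-type pool 3 was left out (0.0618 to 0.158).

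Of 12 SRF and MRTF targets, all 12 were tested, 1 rose (8.33%, against 6.63% of all genes) and 0 fell, with a median change of 0.12. Tagln, a smooth muscle actin-binding protein, read 5.99, 5.88 and 5.83 in the wild-type pools and 6.64, 6.79 and 6.66 in the null pools, a rise of 0.80 (SE 0.15, adjusted p = 0.0181, and 0.134 in the blocked fit). It passed in 2 of the 6 fits that leave out a pool. The 11 others, among them Acta2, Cnn1 and Vcl, changed by -0.32 to 0.41.

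The genes whose levels over the 6 arrays were most like those of Ccn2, by Pearson's r among 15228 genes with a symbol, were Gaa (0.9996), Tmem181a (0.9985), Ikzf4 (0.9982), Wdr59 (0.9980) and Garem2 (0.9967). For Ccn1 they were Mthfd2 (0.9984), Srgap1 (0.9931), Atxn2l (0.9920), Cyp26a1 (0.9914) and Stab1 (0.9910). Changes of the first 5 ran from 0.65 to 1.37 and all were called, and those of the second 5 from 0.33 to 1.51, with Atxn2l not called (adjusted p = 0.193). With 6 arrays in 2 groups, 393 genes had r over 0.95 with Ccn2 and 186 with Ccn1, and the points share the difference between groups and the scaling of each array.

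Markers of other cell types differed between the pools too. Beside the counts below, 6.63% of all genes tested rose and 3.80% fell. As summed linear level relative to the array's 75th percentile, the 8 megakaryocyte and platelet markers lay between 2.74 and 5.32 in the wild-type and between 37.4 and 60.8 in the null pools, and 8 of 8 rose. Visceral endoderm and liver markers lay between 0.43 and 0.73 against 3.02 and 4.23, with 3 of 6 tested risen and Alb not well above background on any array. Markers of pharyngeal endoderm and epithelium lay between 40.9 and 44.6 against 78.6 and 91.7, with 1 of 7 risen, the keratin gene Krt18. The keratins Krt18 and Krt8 changed by 1.09 and 0.89 (Krt8 adjusted p = 0.0753), while the 5 other genes of that list, among them Foxa2 (-0.54) and Epcam (-0.03), changed by -0.54 to 0.27 and did not pass, and the median of the list was -0.03. Red cell markers lay between 242.3 and 507.1 against 663.1 and 981.3, with 1 of 7 risen, Gata1 (change 1.42). The globin genes Hbb-bh1, Hba-x and Hbb-y, which make up most of that sum, changed by 0.98 to 1.15 and did not pass. Alas2 and Slc4a1 (1.18 and 1.03) and Klf1 (-0.23) did not pass either.

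Trophoblast markers lay between 2.21 and 4.30 in the wild-type pools and at 2.89, 3.63 and 30.2 in null pools 1, 2 and 3, with 1 of 5 tested risen and Tpbpa and Cts7 not well above background on any array. That sum leaves out Gcm1, which has no value on null pool 1. The gene that rose was Ascl2 (change 3.62). Hand1, the highest of the summed genes in the wild-type pools (1.42, 0.79 and 1.98), changed by -0.82 and did not pass. It makes up most of the wild-type sums, and whether its transcripts came from trophoblast or from other cells was not tested. Most of the sum in null pool 3 is Prl3d1, which read -3.20, -0.97 and 4.78 in null pools 1, 2 and 3 and did not pass. Macrophage markers lay between 1.11 and 3.32 against 2.26 and 5.11 (2 of 5 tested risen). Epicardial markers lay between 4.86 and 5.20 against 5.35 and 8.80, with 1 of 6 risen, Wt1 (change 1.42). Of the others, Upk3b (0.81) and Tbx18 (0.30) were higher and Tcf21 (-0.41), Aldh1a2 (-0.40) and Upk1b (-0.03) lower. None of these passed, and the median of the list was 0.13. Neural markers lay between 1.07 and 1.70 against 0.96 and 1.55 (0 risen and 2 of 5 tested fallen). Endothelial markers lay between 10.35 and 10.81 against 12.05 and 15.52 with 0 of 7 called. Tek (-0.68) and Nfatc1 (-0.09) were lower and the rest higher, by up to 0.56. Smooth muscle and mesenchyme markers lay between 255.7 and 267.8 against 274.7 and 297.0 with 1 of 7 called, Tagln (change 0.80). Acta2 and Tagln make up most of that sum, and Acta2 changed by -0.24. Col3a1 (-0.36) and Pdgfrb (-0.17) were also lower, while Col1a1 (0.95), Cnn1 (0.14) and Pdgfra (0.09) were higher. Cardiomyocyte markers lay between 1322 and 1548 against 1300 and 1648 with 0 of 10 called. The part of these cell types in the rise of Ccn1, Ccn2, Thbs1, F3 and Crim1 and in the fall of Vgll2 was not tested. Without null pool 3, the pool with the highest trophoblast sum, the change was 2.03 for Ccn2 (limma adjusted p = 0.0143) and 1.12 for Ccn1 (0.061). Ascl2 was also higher in null pools 1 and 2 (-0.07 and 0.12) than in the wild-type pools (-3.795 to -3.262). That fit therefore cannot tell what part trophoblast had, which was not tested.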

How the data were processed

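Per the file headers, the authors read the intensity values in 1 colour from arrays of Agilent design 026655 (build mm9) using Feature Extraction version 10.7.3.1, as background-subtracted processed signal with no scaling between arrays. The spot flags, deposited beside the signal, take other values, 0 or 1. The sources used here do not say how the log2 values in a second deposited table were made. They correlated at 0.999 or above with the scanner signal across probes on each array, had nearly equal medians (6.77) and were used as an alternative. That table held no probe of Amotl2 or Yap1.

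Processed signal was taken to log2, spots marked as outliers were dropped, and the 75th percentile of non-control spots was subtracted array by array. Probes well above background on at least 3 of 6 arrays were kept (26857 of 39429), and the brightest kept probe stood for a gene. Symbols came from RefSeq accessions (26424 probes matched in a table of GRCm38.p6). Groups were compared with limma 3.58.1 (lmFit, eBayes) in R 4.3.3, with Benjamini-Hochberg adjustment over all genes, or over all kept probes where a single probe is given. The procedure was tested on simulated data. No set test was run, and lists are described by counts and medians. A gene of the TGF-beta list is not reported here and is left out of that list's counts.

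The genes, the lists and the alternatives were chosen with earlier results of these data known. Named are all 10 genes, Arid3b, up to 4 called genes of each list by smallest p, and the 5 genes most like Ccn1 and Ccn2. Markers and uncalled genes named beside these illustrate their list. The alternatives were 3 other normalizations, 2 other filters on dim probes, no removal of outlier spots, averaging the probes of a gene, the authors' table, another prior, a block for the slide, array weights and leaving out each pool.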

Additional observations from a re-analysis of the deposited data

How the results depend on the processing

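Ccn2, Vgll2, Thbs1, F3, Crim1, Ier3, Fosl2, Egr1 and Arid3b kept their direction and call under every alternative run for them, with Ccn2 between 1.87 and 2.27. The count of the 10 genes that rose was 1 in place of 2, Ccn2 alone, under median scaling, without the filter on dim probes, with a replicate block (the slide) and on leaving out any 1 pool (lowest and highest 1). It was 3 with the mean of a gene's probes, with the trended prior and with array weights. The count that fell was 1 in place of 0 with array weights (0 with each pool left out). In the 7 other lists together, 15 genes rose, but 24 with array weights and 9 with the slide as a block (10 to 13 with a pool left out). In them 2 fell, but 5 with normexp, 4 with array weights and 1 with no filter, with the mean of probes or with the slide as a block (1 to 2 with a pool left out). Yap1 turned in sign with quantile normalization (0.038), normexp (0.030) and on leaving out pool 1 or 2 of either genotype (from -0.15 to 0.10 over the 6), and Lats2 with the mean of its probes (0.19). The cause was not tested.

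Over all genes 2276 were called, 1447 higher and 829 lower. With median scaling 1105 were higher and 1399 lower, and the median change moved by -0.133. Relative to the median of all genes, Ccn1 changed by 0.962 with both scalings. That equality holds for any gene, since the scalings differ only by a constant per array, and says nothing about how firm the call is. The number called was 1037 with no filter, 4861 with array weights, 745 with the slide as a block and 833 to 1751 with a pool left out. Whether the pool numbers pair the samples was checked by correlating deviations from the group means across genes. That gave -0.40, -0.09 and -0.41 for pools of the same number and -0.18 to 0.49 for pools of unlike number. With 3 pools per group the deviations are not independent. The check therefore cannot tell whether pools of the same number share more than a slide. Array position and genotype cannot be told apart, since each slide held the groups in the same order. With 3 arrays per group, small changes such as those of Axl or Tead2 are near the limit of this design.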
